A study of Mus musculus with 8 samples.

Results

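Expression was compared between blood stem and progenitor cells taken from leukemic and from normal mice, and the genes described here are those that differed in the same direction in both cell types. A gene was included when both arrays of leukemic mice lay above, or both below, both arrays of normal mice in HSC and, in the same direction, in KSL. Of 18193 genes measured, 1853 met this rule, 779 of them higher and 1074 lower in leukemic mice. All 8 arrays of the study entered, 4 from leukemic and 4 from normal mice, in 4 groups of 2 arrays. Leukemic mice were chimeras: CD45.1+ hosts received CD45.1+ marrow mixed evenly with CD45.2+ marrow transgenic for SCL-tTA and BCR-ABL, and normal mice were made alike without the BCR-ABL transgene. SCL-tTA places BCR-ABL under control of a stem and progenitor cell promoter and a tetracycline switch. The CD45.1+ cells, which lack BCR-ABL, were sorted 4 weeks after tetracycline was removed from the drinking water. HSC were CD45.1+ CD150+ CD48- KSL cells and KSL were CD45.1+ KSL cells (lineage-negative, Kit+, Sca-1+), so the HSC gate lies inside the KSL gate and the cell types are not separate populations. Hosts carried CD45.1 as well, and the sort does not tell cells of the host from those of the CD45.1+ graft. The labels give no age, and do not say whether replicates, or HSC and KSL of the same number, came from separate mice, so p-values measure the spread between these samples, which may be technical.

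BCR-ABL is the fusion tyrosine kinase of chronic myeloid leukaemia, a disease in which mature granulocytes and their precursors accumulate in marrow, blood and spleen. Non-transformed stem cells in such a marrow share their surroundings with leukemic cells and are exposed to the cytokines and chemokines made there. Stem cells at the top of the blood hierarchy express transcription factors of self-renewal, while progenitors beneath them begin to express genes of the granulocyte, mast cell, erythroid and lymphoid lineages at low levels. The question was which transcripts of such bystander cells differed with a leukemic marrow.

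Levels are log2 signal intensities from Affymetrix mouse arrays, with a lower limit of 3.32 below which the deposited values do not go. For each gene the arrays are given as normal against leukemic, replicate 1 before replicate 2. The joint difference is the leukemic minus normal difference averaged over HSC and KSL, with its standard error from a limma fit over all 8 arrays that has a term for cell type. The labelled cell types were borne out by their defining genes: Slamf1 (CD150) lay between 8.23 and 9.36 on HSC arrays and between 5.27 and 7.06 on KSL arrays, and Cd48 between 6.19 and 8.12 against 10.17 to 10.44. Replicate 1 of both normal groups had a male pattern of sex-linked genes, with Xist at 5.79 and 3.67 against 11.63 to 11.99 on the other 6 arrays. All 4 leukemic arrays had a female level of Xist, so in each cell type 1 of 2 normal arrays differed from them in sex. Of 9 Y-linked genes 3 met the rule for shared lower genes, Eif2s3y at -2.66 ± 1.0, Uty at -1.96 ± 0.78 and Orly at -0.40 ± 0.18. Without the arrays with the male pattern, Eif2s3y was at -1.08 and Uty at -0.64, and Orly was higher on the female than on the male normal array in both cell types. Of 3 control transcripts for RNA quality, 1 shared a direction in both cell types. For Tfrc the 3 prime minus 5 prime difference was higher on leukemic arrays in HSC (-2.04 and -1.74 against -0.36 and -0.75) and lower in KSL (-1.28 and -1.58 against -1.65 and -1.68). For Gapdh the 3 prime minus 5 prime difference was higher on leukemic arrays in HSC (0.78 and 0.83 against 1.19 and 1.03) and overlapped in KSL, while for Actb it was lower without overlap in both (-0.37 and -0.38 against -0.42 and -0.50 in HSC, -0.48 and -0.48 against -0.53 and -0.53 in KSL). Their part in the results was not tested.

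No gene passed the joint test: limma called 0 genes higher and 0 lower at a Benjamini-Hochberg adjusted p under 0.05 (0.0% of 18193 in each direction), with 1934 at an unadjusted p under 0.05 (10.6%, of which 802 were higher, 4.41%, and 1132 lower, 6.22%), where 909.65 would be reached if none differed. In HSC alone limma passed 18 genes (0.0989%) and in KSL alone 8 (0.044%). The shared genes are therefore described by their values. They made up 10.2% of all genes, 4.28% higher and 5.9% lower. For comparison, 1107 genes (6.08%) separated the groups in both cell types but with opposite signs, 593 of them higher in HSC and lower in KSL. Groups did not overlap for 5942 genes in HSC (32.7%) and 8104 in KSL (44.5%), and the shared higher genes were 26.8% of those higher in HSC and 20.9% of those higher in KSL. The shared lower genes were 35.4% of those lower in HSC and 24.5% of those lower in KSL. With so few arrays per group, chance alone separates the groups for many genes. The share of genes separated in HSC, 32.7%, is close to what a chance ordering of the arrays would give. How many genes would meet the rule in both cell types if none differed was not calculated. Part of the shared set may therefore have met the rule by chance. The split between higher and lower genes depended on how arrays were scaled: with all arrays shifted to a common median, 1266 genes were higher and 761 lower.

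**Figure D1:**
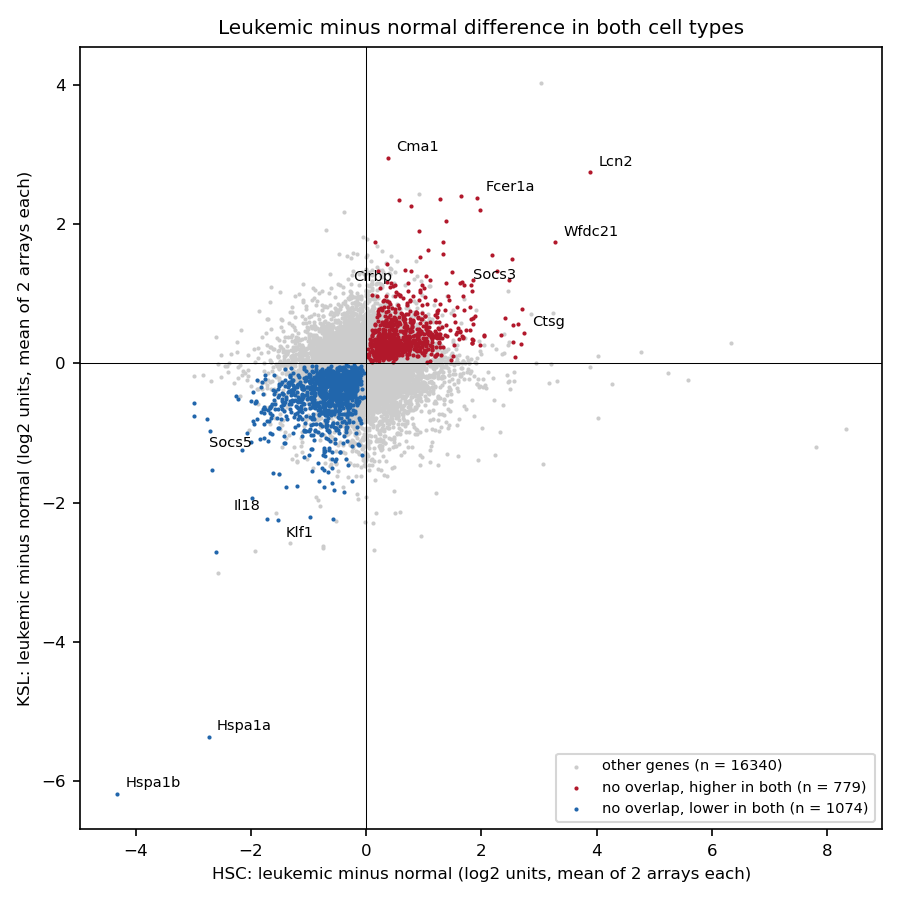
Each point is 1 of 18193 genes, with the leukemic minus normal difference in HSC on the horizontal axis and in KSL on the vertical axis, both in log2 units from means of 2 arrays per group. The 779 shared higher genes (red) and 1074 shared lower genes (blue) fill the upper right and lower left quadrants, and Hspa1b and Hspa1a lie farthest out at the lower left, at -4.33 and -6.18 and at -2.73 and -5.36.

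Most shared differences were small. The median joint difference was 0.46 among the higher genes (range 0.06 to 3.31) and -0.51 among the lower genes (range -5.25 to -0.07), against 0 over all genes. A difference of at least 1 log2 unit in both cell types was seen for 25 higher and 24 lower genes, and of at least 0.5 for 137 and 278. In at least 1 cell type the difference was under 0.2 for 223 higher and 250 lower genes. At the edge of the rule, Usf2, a transcription factor gene, was just inside, with its arrays at 7.57 and 8.56 against 8.56 and 8.69 in HSC, and 7.94 and 7.69 against 8.89 and 8.73 in KSL. Ap3b2, a vesicle adaptor subunit gene, was just outside, at 3.97 and 4.27 against 4.63 and 4.27 in HSC, and 4.0 and 4.10 against 4.33 and 4.54 in KSL. Such genes differ from their neighbours across the boundary by less than the replicate spread.

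The 30 genes with the smallest p in the joint fit all belonged to the shared set. The fit and the rule draw on the same 8 arrays, so this overlap is no separate support for either. Pdrg1, named for its regulation by p53 and DNA damage, had the lowest adjusted p. Its arrays lay at 11.28 and 11.37 against 10.61 and 10.65 in HSC, and 11.03 and 11.10 against 10.38 and 10.25 in KSL. All leukemic arrays were below all normal arrays across both cell types, with a joint difference of -0.72 ± 0.04 (limma adjusted p = 0.0809). The 10 genes that followed each had a limma adjusted p of 0.110. Lower among them were the RNA helicase gene Ddx17 (-0.83 ± 0.06), the cohesin regulator gene Pds5b (-0.67 ± 0.05, with other probe sets at -0.09 and -0.12), the thymocyte transcription factor gene Tox (-1.03 ± 0.09) and the BAFF receptor gene Tnfrsf13c (-1.01 ± 0.09). Higher were the ubiquitin ligase gene Trim37 (0.70 ± 0.06), the ribosome assembly factor gene Rsl24d1 (0.31 ± 0.03), the inhibitory receptor gene Cd300lf (0.58) and Cirbp (0.88 ± 0.07).

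The largest shared difference of all was in the inducible heat shock protein 70 genes Hspa1a and Hspa1b, which encode chaperones that refold damaged proteins and are switched on by heat shock factor. Hspa1b lay at 8.53 and 6.76 against 3.32 and 3.32 in HSC, and 11.29 and 9.18 against 4.31 and 3.80 in KSL. Hspa1a lay at 6.25 and 5.86 against 3.32 and 3.32 in HSC, and 9.76 and 7.60 against 3.32 and 3.32 in KSL. Both genes were above the lower limit on every normal array and, on leukemic arrays, Hspa1a was at the lower limit on all 4 and Hspa1b on both HSC arrays. Against that limit Hspa1a was at least 6.64-fold lower in HSC and at least 41.1-fold lower in KSL of leukemic mice, and Hspa1b at least 20.1-fold lower in HSC. In KSL, Hspa1b had a measured difference of -6.18 log2 units. Neither joint difference passed, at -5.25 ± 0.70 for Hspa1b (limma adjusted p = 0.171) and -4.05 ± 0.72 for Hspa1a (limma adjusted p = 0.221). The normal arrays with the male pattern held the higher levels, and without them the differences were -4.28 and -3.41. Hspa1a and Hspa1b are near-identical copies whose probes can share signal, so they may not be independent observations. Other probe sets for Hspa1b gave -4.06 and -4.15.

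The promoters of these genes are shown because the copies lie side by side and went together. Each sequence is the 250 bases before the annotated start, from RefSeq on GRCm38.p6, 5′ to 3′ on the gene's own strand (minus), and capitals mark a match to GAANNTTC, the core of the heat shock element.
Hspa1a chr17:34972157-34972406 minus strand: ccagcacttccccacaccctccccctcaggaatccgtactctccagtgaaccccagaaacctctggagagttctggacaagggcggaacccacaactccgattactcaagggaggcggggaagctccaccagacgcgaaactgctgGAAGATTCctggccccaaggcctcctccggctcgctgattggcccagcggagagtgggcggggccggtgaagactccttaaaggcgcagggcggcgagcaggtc
Hspa1b chr17:34959239-34959488 minus strand: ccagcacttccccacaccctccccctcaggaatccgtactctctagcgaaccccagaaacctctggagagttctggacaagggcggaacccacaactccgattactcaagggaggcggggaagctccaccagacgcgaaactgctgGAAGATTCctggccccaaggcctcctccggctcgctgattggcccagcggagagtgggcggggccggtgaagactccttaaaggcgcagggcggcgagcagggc
The windows differed at 3 of 250 bases, and in both the match began 104 bases before the start. Across promoter windows, 5.48% of all, 5.78% of those of shared higher genes and 4.74% of those of shared lower genes held GAANNTTC on either strand. A match is a description of the sequence and says nothing of binding.

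The other heat shock genes had far smaller differences than Hspa1a and Hspa1b. Of 37 measured genes of the heat shock and unfolded protein response, 5 were in the shared higher set and 5 in the shared lower set. Each was 13.5% of the list, where 4.28% of all genes were higher and 5.9% lower, and the list's median joint difference was 0.01. Hspa8, the constitutive heat shock cognate, met the rule for lower genes by a small margin, with differences of -0.10 and -0.17 in HSC and KSL. Its other probe sets gave joint differences of -0.04, -0.08 and -1.60. The cytosolic co-chaperone gene Dnajb1 differed by -0.07 and -0.77, Dnaja1, another such gene, by -0.99 and -0.26, Hsp90aa1 by -0.04 and 0.06, Hsph1 by -0.87 and 0.05 and the small heat shock protein gene Hspb1 by 0.38 and -0.64, and none of these met the rule. Cirbp, which encodes an RNA-binding protein induced by mild cold, went the other way from Hspa1a. Its arrays lay at 10.47 and 10.46 against 11.15 and 11.22 in HSC, and 9.96 and 9.97 against 10.98 and 11.03 in KSL. Replicates were within 0.1 of each other in each group, so the separation was many times the replicate spread. It rose in each cell type when that was tested alone (limma adjusted p = 0.0382 in HSC and 0.0322 in KSL). The joint test missed the threshold for Cirbp (limma adjusted p = 0.11) and passed it with 1 mean per group (0.0122) and with array weights (0.0386). Pdrg1 passed in those fits too, at 0.046 and 0.0386, and with the mean of its probe sets at 0.0366.

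**Figure D2:**
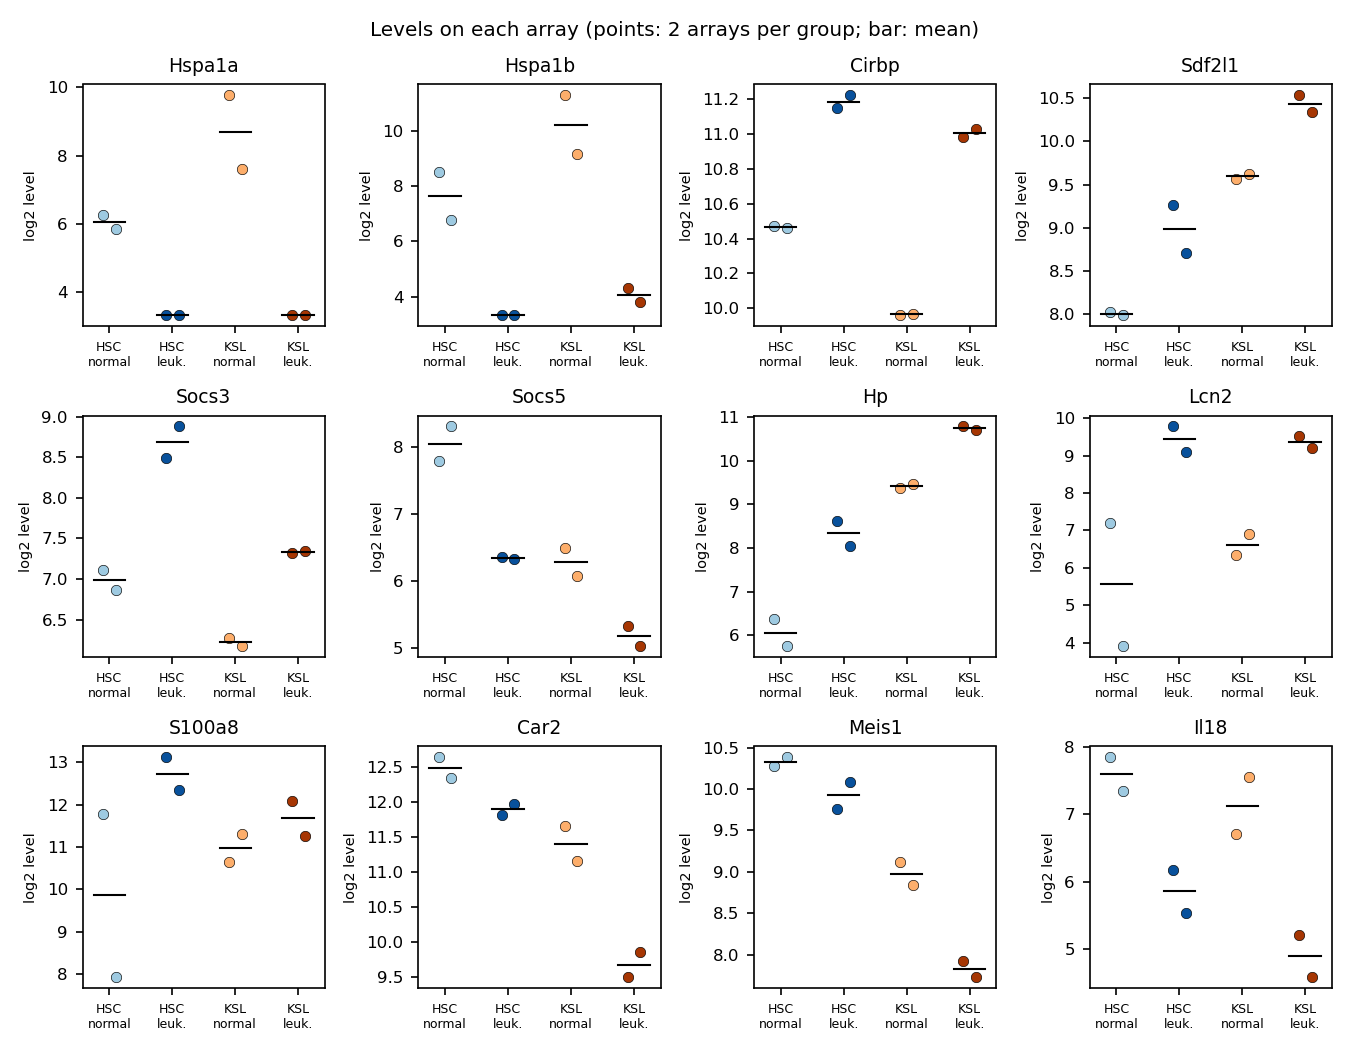
Log2 levels of 12 genes on every array, with 2 points per group for the arrays and a bar for their mean, and a separate vertical scale for each gene. Hspa1a, Hspa1b, Socs5, Car2, Meis1 and Il18 lie lower and Cirbp, Sdf2l1, Socs3, Hp and Lcn2 higher in leukemic mice of both cell types. S100a8 shows the spread between the HSC arrays of normal mice, 11.79 and 7.93, and overlaps in KSL.

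Chaperones of the endoplasmic reticulum were among the shared higher genes. Sdf2l1, a co-chaperone of the lumen, lay at 8.03 and 7.99 against 9.27 and 8.71 in HSC, and 9.57 and 9.62 against 10.53 and 10.34 in KSL, a joint difference of 0.91 ± 0.13 (limma adjusted p = 0.192). The disulphide isomerase gene Pdia6 differed by 0.34 and 0.62 in HSC and KSL, Dnajc3, an inhibitor of stress kinases, by 0.38 and 0.53, the stress sensor kinase gene Eif2ak3 (PERK) by 0.27 and 0.14 and the degradation factor gene Edem1 by 0.09 and 0.28. Lower were Dnajb9, another luminal co-chaperone, at -0.25 and -0.73, and the membrane-bound transcription factor gene Creb3. Creb3 lay at 10.74 and 10.89 against 9.44 and 9.33 in HSC, and 10.19 and 10.34 against 9.66 and 9.50 in KSL, with no overlap and a joint difference of -1.05 ± 0.17 (limma adjusted p = 0.202). The shared members of this list thus had no common direction.

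Of 22 measured genes of granulocyte and monocyte progenitors, 10 were in the shared higher set and 0 in the lower set, 45.5% where 4.28% of all genes were higher. The median joint difference was 0.86, made up of 1.33 in HSC and 0.39 in KSL, and limma passed 0 of the 22. Of the 10, 5 also had a gap of at least 0.2 log2 units between leukemic and normal arrays in both cell types. Of all 18193 genes, 186 were higher and 324 lower with such a gap. Gap counts of this and later lists are to be read beside these numbers, not beside the shares without a gap. Hp, haptoglobin, which binds free haemoglobin, had the largest joint difference of these 10. It lay at 6.38 and 5.75 against 8.62 and 8.05 in HSC, and 9.37 and 9.47 against 10.78 and 10.70 in KSL. No leukemic array overlapped a normal array of its cell type, and the joint difference was 1.79 ± 0.27 (limma adjusted p = 0.192). Ms4a3, a membrane protein typical of granulocyte-monocyte progenitors, lay at 6.53 and 6.30 against 7.42 and 7.88 in HSC, and 11.60 and 11.87 against 12.59 and 12.37 in KSL. Csf2rb, the shared signalling chain of the GM-CSF, IL-3 and IL-5 receptors, lay at 7.09 and 6.23 against 8.38 and 7.80 in HSC, and 8.92 and 8.68 against 9.65 and 9.77 in KSL. Their joint differences were 0.99 ± 0.17 and 1.17 ± 0.25.

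The proteases and peroxidase stored in primary granules behaved alike in direction but not in size. Ctsg (cathepsin G) lay at 6.50 and 6.04 against 8.74 and 9.28 in HSC, and 12.65 and 12.88 against 13.27 and 13.14 in KSL. Elane (neutrophil elastase) lay at 5.45 and 7.75 against 9.31 and 9.0 in HSC, and 12.59 and 12.86 against 13.12 and 12.96 in KSL. Mpo (myeloperoxidase) lay at 7.75 and 9.60 against 10.63 and 11.89 in HSC, and 13.23 and 13.13 against 13.23 and 13.31 in KSL. These transcripts were already near the top of the array's range in KSL of normal mice, where their differences were 0.44, 0.31 and 0.09, while in HSC they were 2.74, 2.55 and 2.58. Proteinase 3 (Prtn3) differed by 0.35 and 0.54 in HSC and KSL, the cystatin gene Cst7 by 1.61 and 0.35, Plac8 by 1.13 and 0.14 and the surface receptor gene Igsf6 by 0.89 and 0.65. No member met the adjusted threshold for a difference in effect between HSC and KSL, and the lowest adjusted p of that interaction among all shared genes was 0.145.

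The promoter of Ctsg is shown because the gene lies next to Mcpt8, another shared higher gene. Its 250 bases before the start, from RefSeq on GRCm38.p6, are written 5′ to 3′ on the minus strand, with a match to GAGGAA, the core recognised by the myeloid factor PU.1, in capitals.
Ctsg chr14:56102575-56102824 minus strand: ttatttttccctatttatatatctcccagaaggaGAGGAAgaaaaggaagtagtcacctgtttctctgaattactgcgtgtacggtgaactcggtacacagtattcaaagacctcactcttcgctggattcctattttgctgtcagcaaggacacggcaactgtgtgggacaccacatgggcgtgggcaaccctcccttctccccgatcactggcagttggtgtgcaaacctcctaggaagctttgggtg
The match began 216 bases before the start. GAGGAA occurred on either strand in 24% of promoter windows of shared higher genes, 23.5% of those of shared lower genes and 22.8% of all windows, so the shared genes held it at about the background rate.

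Of 17 measured genes of maturing neutrophils and of alarmins, 5 were in the shared higher set and 0 in the lower set, and 12 did not meet the rule. The 5 were 29.4% of the list, where 4.28% of all genes were higher, and all 5 kept a gap of at least 0.2 log2 units. The 5 include Ccr2, a monocyte receptor described with the chemokines. The list's median joint difference was 1.10, and it ran from 0.70 without the female normal HSC array to 1.51 without the male normal KSL array. Lcn2, lipocalin 2, which binds bacterial iron carriers, had the largest joint difference of any shared higher gene. It lay at 7.21 and 3.90 against 9.78 and 9.09 in HSC, and 6.34 and 6.90 against 9.53 and 9.20 in KSL. Its normal HSC arrays were far apart, and the lower one is the female array. Wfdc21, a secreted neutrophil protein, lay at 5.72 and 4.18 against 8.30 and 8.15 in HSC, and 7.76 and 8.14 against 9.92 and 9.46 in KSL. Chil3, a chitinase-like protein of myeloid cells, lay at 6.67 and 5.56 against 9.07 and 7.12 in HSC, and 5.08 and 5.27 against 7.77 and 6.97 in KSL. The joint differences were 3.31 ± 0.76 for Lcn2, 2.51 ± 0.48 for Wfdc21 and 2.09 ± 0.50 for Chil3. Fcnb (ficolin B) differed by 1.82 and 1.12 in HSC and KSL.

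The defining genes of mature neutrophils were measurable on the same arrays. None of the 6 fixed markers was at the lower limit on any array, and apart from Lcn2 none met the rule. S100a8 lay at 11.79 and 7.93 against 13.11 and 12.34 in HSC, and 10.65 and 11.31 against 12.09 and 11.27 in KSL. S100a9 lay at 12.17 and 6.66 against 12.86 and 12.43 in HSC, and 11.36 and 9.07 against 11.29 and 10.58 in KSL. Camp, a secondary granule peptide, lay at 10.12 and 5.59 against 10.27 and 10.35 in HSC, and 8.88 and 5.64 against 8.37 and 8.24 in KSL. For S100a9 and Camp the normal array with the male pattern lay at or near the leukemic arrays and the female normal array well below in both cell types. Ltf differed by 0.57 and 0.41 and Ngp by 1.09 and 1.10 in HSC and KSL. The mean level of all 17 genes of this list ranged from 5.77 to 7.34 in HSC of normal mice and 7.93 to 8.34 in HSC of leukemic mice, and from 7.06 to 7.40 against 8.0 to 8.29 in KSL. In sorted bulk samples, a few mature cells with much RNA and more transcript per stem cell cannot be told apart, and the part of mature cells in the granule results was not tested.

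**Figure D3:**
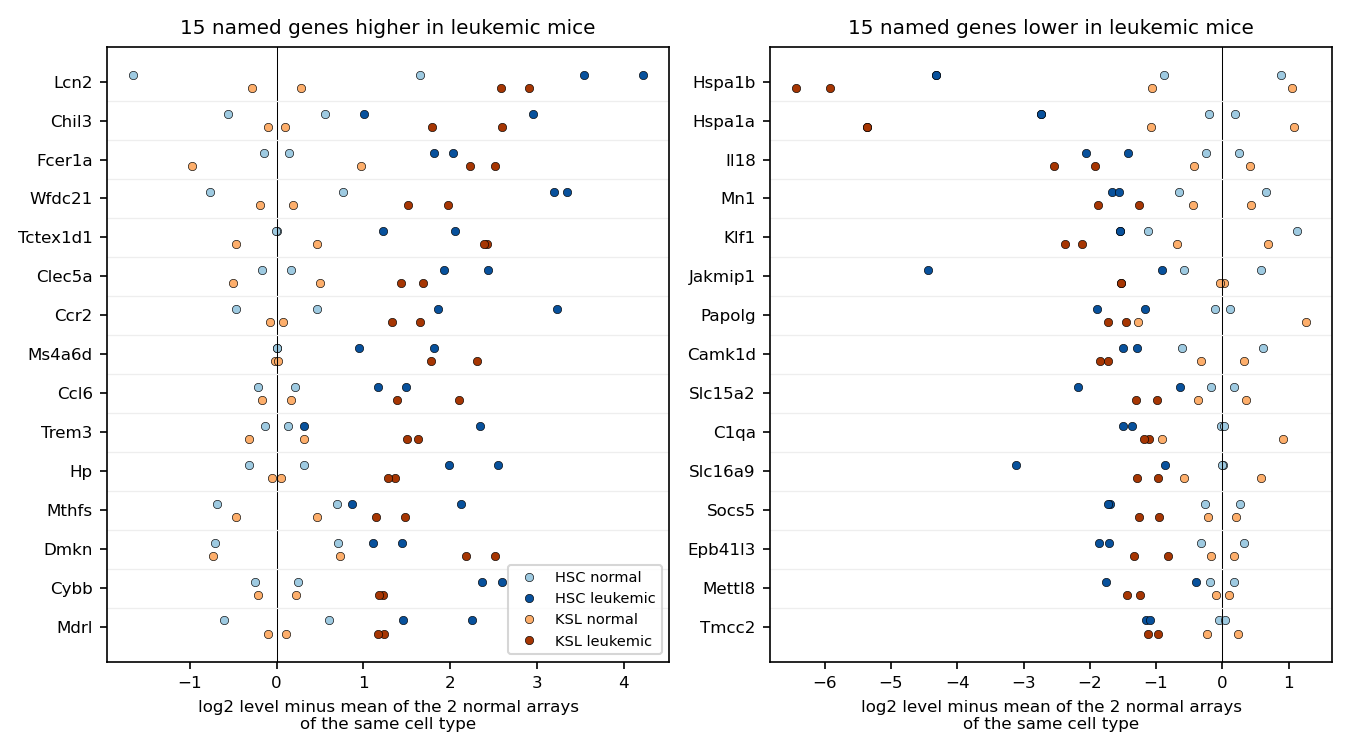
Levels on each array for the 15 higher and 15 lower genes with the largest smaller difference of both cell types, as log2 units from the mean of the 2 normal arrays of the same cell type. Dark points (leukemic) lie to the right of pale points (normal) on the left panel and to the left of them on the right panel, within each cell type. Hspa1b and Hspa1a reach the lowest values, and Lcn2 and Klf1 show wide spreads between normal HSC arrays.

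Mast cell, basophil and eosinophil genes formed the third myeloid group, with 6 of 13 measured members higher without overlap and 0 lower. The higher share was 46.2% where 4.28% of all genes were higher, 3 kept a gap of at least 0.2 log2 units, and the median joint difference was 0.63. Fcer1a, the alpha chain of the IgE receptor, lay at 3.60 and 3.32 against 5.49 and 5.27 in HSC, and 4.98 and 6.92 against 8.18 and 8.47 in KSL. Tpsb2, a mast cell tryptase, lay at 4.67 and 4.73 against 5.16 and 5.58 in HSC, and 4.79 and 4.87 against 6.35 and 5.99 in KSL. Cma1, mast cell chymase, lay at 5.44 and 5.55 against 5.62 and 6.14 in HSC, and 6.0 and 5.61 against 8.62 and 8.89 in KSL. All 3 were higher on every leukemic array, but Cma1 differed mainly in KSL, by 2.95 against 0.38 in HSC. Mcpt8, a basophil protease, differed by 1.62 and 1.15 in HSC and KSL, Prg2, an eosinophil granule protein, by 0.33 and 0.68, and granzyme B (Gzmb) by 0.36 and 1.17. Tph1, which makes serotonin and is found in mast cells, lay outside the list and was higher as well, by 0.94 and 1.53. In HSC the list's mean level stayed low, between 4.66 and 4.76 on normal and 4.95 and 5.53 on leukemic arrays, against 7.02 to 7.29 and 8.27 to 8.32 in KSL.

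Other large shared higher genes, grouped here after their values were seen, are known from phagocytes. Cybb, the catalytic subunit of the phagocyte NADPH oxidase, lay at 4.58 and 4.08 against 6.69 and 6.92 in HSC, and 8.09 and 8.53 against 9.54 and 9.49 in KSL. Clec5a, a C-type lectin receptor, lay at 3.34 and 3.68 against 5.44 and 5.95 in HSC, and 6.27 and 7.28 against 8.21 and 8.46 in KSL. Ms4a6d, a monocyte membrane protein, lay at 3.32 and 3.32 against 5.13 and 4.27 in HSC, and 3.44 and 3.47 against 5.76 and 5.23 in KSL, so that normal HSC were at the lower limit and leukemic HSC at least 2.6-fold higher. The other probe set for Ms4a6d gave a joint difference of 0.06, so this rests on the brighter one. Trem3, a receptor of the TREM family, differed by 1.33 and 1.57 in HSC and KSL, the Fc receptor gene Fcgr4 by 1.03 and 1.26, the lectin gene Siglece by 0.97 and 1.13, the inhibitory receptor gene Lair1 by 1.20 and 0.91 and Lrg1, a secreted glycoprotein of neutrophils, by 1.07 and 1.62. Other probe sets for Lair1 gave -0.12 and 0.36. Itgam (CD11b), which marks mature myeloid cells and belongs to the lineage cocktail commonly used to gate KSL cells, did not meet the rule, at 3.87 and 3.33 against 7.13 and 4.57 in HSC, and 5.15 and 5.20 against 5.59 and 5.17 in KSL.

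Chemokines and their receptors were shared higher genes in 5 of 25 measured members and lower in 1, with a list median of -0.08. The shares were 20% and 4%, where 4.28% of all genes were higher and 5.9% lower. A gap of at least 0.2 log2 units left 4 higher and 0 lower. Ccr2, the receptor for CCL2 on monocytes, lay at 4.67 and 3.74 against 7.43 and 6.06 in HSC, and 7.76 and 7.91 against 9.16 and 9.49 in KSL. Ccl6, a chemokine of myeloid cells, lay at 5.43 and 5.86 against 6.81 and 7.14 in HSC, and 6.27 and 6.61 against 8.54 and 7.83 in KSL. Its joint difference was 1.54 ± 0.22 (limma adjusted p = 0.192) and that of Ccr2 was 2.01 ± 0.42 (limma adjusted p = 0.26). Ccl9, another myeloid chemokine, differed by 1.22 and 0.44 in HSC and KSL, Ccl2, a ligand of Ccr2, by 0.51 and 0.33, and the interferon-inducible ligand gene Cxcl10 by 0.88 and 0.49. Cxcr6 was the lower member, at -0.31 and -0.70. Receptor and ligand of the CCL2 axis were thus both in the shared set, with the ligand differing by far less.

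Toll-like receptors and their partners gave 4 higher and 2 lower of 19 (21.1% and 10.5%, where 4.28% of all genes were higher and 5.9% lower). A gap of at least 0.2 log2 units left 0 higher and 2 lower. Tlr6 differed by 0.46 and 0.55 in HSC and KSL, the nucleic acid receptors Tlr7 by 0.86 and 0.21 and Tlr9 by 0.50 and 0.18, and Unc93b1, which carries these receptors to endosomes, by 0.97 and 0.24. Lower were Ly96 (MD-2), the lipopolysaccharide co-receptor of TLR4, which lay at 5.95 and 5.54 against 4.94 and 4.22 in HSC, and 6.50 and 6.34 against 5.86 and 5.46 in KSL, and the scavenger receptor gene Cd36 at -0.60 and -0.53. Cd36 was near the lower limit, between 3.32 and 4.17 over all arrays, with 2 leukemic arrays at the limit. Its other probe set gave a joint difference of -0.07. Among 22 colony-stimulating factor and cytokine receptors, Csf2rb was the higher gene and the IL-21 receptor gene Il21r the lower, at -0.84 and -0.57. Each was 4.55% of that list, near the shares of all genes.

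Within the IL-6 family and the STAT3 pathway, the clearest values were in feedback inhibitors. Cytokines of this family signal through gp130, JAK kinases and STAT3, and SOCS proteins are induced by STATs and shut the receptors off. Socs3 lay at 7.11 and 6.87 against 8.49 and 8.88 in HSC, and 6.27 and 6.17 against 7.32 and 7.35 in KSL. Socs5 lay at 7.79 and 8.31 against 6.35 and 6.32 in HSC, and 6.49 and 6.07 against 5.32 and 5.02 in KSL. These genes thus went in opposite directions, Socs3 higher by 1.41 ± 0.16 (limma adjusted p = 0.139) and Socs5 lower by a joint difference of -1.41 ± 0.20 (limma adjusted p = 0.192), each with replicates closer together than the groups. Other probe sets for Socs3 gave 0.85 and 1.30, and the other probe set for Socs5 gave -0.40.

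The promoter of Socs3 is shown because a STAT site is the known entry of this feedback. Its 250 bases before the start, from RefSeq on GRCm38.p6, are written 5′ to 3′ on the minus strand, with a match to TTCNNNGAA, the STAT palindrome, in capitals.
Socs3 chr11:117969367-117969616 minus strand: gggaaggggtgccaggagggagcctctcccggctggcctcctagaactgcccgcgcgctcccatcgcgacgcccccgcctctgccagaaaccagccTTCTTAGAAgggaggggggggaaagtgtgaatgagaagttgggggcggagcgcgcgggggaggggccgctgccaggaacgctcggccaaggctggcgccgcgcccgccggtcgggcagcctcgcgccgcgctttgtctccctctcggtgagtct
The match began 154 bases before the start. TTCNNNGAA occurred in 6.57% of promoter windows of shared higher genes, 6.18% of those of shared lower genes and 6.21% of all windows.

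Of the 35 measured members of the IL-6 and STAT3 list, 4 were shared higher and 3 shared lower genes, and the median joint difference was -0.03. The shares were 11.4% and 8.57%, where 4.28% of all genes were higher and 5.9% lower. Osm (oncostatin M), a ligand of the family, lay at 6.62 and 6.59 against 7.59 and 7.14 in HSC, and 7.49 and 7.90 against 8.14 and 8.18 in KSL. Bcl3, a nuclear IkB protein, lay at 7.62 and 8.15 against 9.05 and 9.78 in HSC, and 7.44 and 7.15 against 7.90 and 8.07 in KSL. Socs6 differed by 0.35 and 0.30 in HSC and KSL, Socs1 by -0.24 and -0.19 and Pias3, an inhibitor of STAT3, by -1.24 and -0.73. The suppressors of cytokine signalling were therefore divided, with Socs3 and Socs6 higher and Socs1 and Socs5 lower.

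In the interleukin-1 and interleukin-18 system, 1 of 21 members was higher and 2 were lower (4.76% and 9.52%, where 4.28% of all genes were higher and 5.9% lower). Il18, a cytokine activated by inflammasomes, had one of the largest shared lower values. It lay at 7.84 and 7.34 against 6.17 and 5.54 in HSC, and 6.70 and 7.55 against 5.21 and 4.58 in KSL. The groups were apart by more than a log2 unit in both cell types, with a joint difference of -1.98 ± 0.30 (limma adjusted p = 0.192). Nlrp3, the inflammasome sensor, differed by -0.25 and -1.19 in HSC and KSL, and Il1rl2, the IL-36 receptor, by 0.91 and 0.91. For Nlrp3 the KSL value came from 1 normal array (normal KSL arrays at 4.68 and 6.58), and without it the joint difference was -0.25 in place of -0.72. Il1r1, the IL-1 receptor, was not a shared gene, since it was higher in HSC (1.95) and lower in KSL (-0.34).

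Of 16 measured macrophage genes, 6 were in the shared lower set (37.5% where 5.9% of all genes were lower) and 0 in the higher set, 8 were below 0 in both cell types, 2 met the rule with a gap of at least 0.2 log2 units, and the median joint difference was -0.41. C1qa, a subunit of complement C1q, lay at 5.0 and 5.04 against 3.52 and 3.66 in HSC, and 4.32 and 6.14 against 4.13 and 4.05 in KSL. Hmox1, haem oxygenase, which degrades haem, lay at 8.22 and 8.20 against 7.96 and 7.34 in HSC, and 7.24 and 7.40 against 5.30 and 5.70 in KSL. Axl, a receptor for dying cells, lay at 6.79 and 7.32 against 6.01 and 5.88 in HSC, and 5.15 and 5.59 against 5.11 and 4.71 in KSL. The differences in HSC and KSL were -0.39 and -1.04 for C1qc, -0.53 and -0.20 for Mertk and -0.39 and -0.84 for Cd5l. The macrophage marker Adgre1 did not meet the rule, at 3.32 and 3.51 against 3.32 and 3.32 in HSC, and 4.25 and 4.06 against 4.83 and 4.41 in KSL. C1qb lay at 4.66 and 8.54 against 3.32 and 6.02 in HSC, and 6.24 and 8.49 against 5.18 and 4.15 in KSL, with the female normal arrays highest. Many of these levels are low on the array, and the part of a few macrophages in the sorted samples was not tested.

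Stem cell identity genes were lower in both cell types for part of their number. Of 28 measured genes of long-term stem cell identity, 6 were shared lower and 1 was a shared higher gene, with a median joint difference of -0.26. The lower share was 21.4% where 5.9% of all genes were lower. A gap of at least 0.2 log2 units was kept by 4 of the 6, where 324 of all 18193 genes were lower with that gap. Hlf, a transcription factor of dormant stem cells, lay at 10.77 and 10.41 against 10.25 and 9.48 in HSC, and 8.91 and 8.49 against 7.52 and 7.35 in KSL. Mllt3, which preserves stem cells in culture, lay at 11.24 and 10.92 against 10.08 and 10.33 in HSC, and 8.14 and 7.58 against 7.19 and 7.33 in KSL. Fgd5, a marker restricted to stem cells within marrow, lay at 7.13 and 7.04 against 4.79 and 5.96 in HSC, and 4.39 and 4.26 against 3.97 and 3.32 in KSL. Each was lower on both leukemic arrays than on both normal arrays of its cell type. Trpc6, an ion channel gene, differed by -0.77 and -1.51 in HSC and KSL and the retinoic acid receptor gene Rarb by -0.91 and -0.39. Clca3a1 was the higher gene, at 2.55 and 0.54. The marker genes Procr at -1.25 and -0.36, Mecom at -0.15 and -0.63 and Hoxb5 at -0.49 and 0.62 did not meet the rule.

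Transcription factors of self-renewal gave 6 shared lower genes of 30 (20% where 5.9% of all genes were lower) and 0 higher, and 3 kept a gap of at least 0.2 log2 units. The joint difference was below 0 for 25 of 30, and 17 were below 0 in both cell types. The list's median of -0.32 came mostly from KSL (-0.62, against -0.09 in HSC). Meis1, a partner of HOX proteins, lay at 10.28 and 10.38 against 9.76 and 10.09 in HSC, and 9.12 and 8.84 against 7.93 and 7.73 in KSL. Gfi1b, a repressor in stem and erythroid cells, lay at 10.72 and 10 against 9.11 and 9.67 in HSC, and 9.13 and 8.43 against 6.45 and 6.70 in KSL. Lyl1, a relative of SCL, lay at 10.60 and 9.99 against 8.73 and 8.90 in HSC, and 9.91 and 10.14 against 9.53 and 9.29 in KSL. The ETS factor gene Erg had a joint difference of -0.51 ± 0.11 (limma adjusted p = 0.263), Nfix of -0.45 ± 0.09 and Myb of -0.23 ± 0.10, the last with -0.06 in KSL. The mean level of the list did not overlap between leukemic and normal arrays in either cell type. It ranged from 9.14 to 9.28 against 9.36 to 9.41 in HSC, and from 8.10 to 8.13 against 8.68 on both normal arrays in KSL. Mn1, a co-activator that can transform progenitors, lay outside the list and was lower at 6.83 and 5.52 against 4.51 and 4.61 in HSC, and 7.18 and 6.30 against 4.86 and 5.48 in KSL.

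Genes of quiescence and CDK inhibition were lower in 4 of 22 members (18.2% where 5.9% of all genes were lower) and higher in 1. A gap of at least 0.2 log2 units left 2 lower and 0 higher. The list's median was -0.19 (0.06 in HSC and -0.46 in KSL), and -0.096 without the male normal KSL array. Tob1, an antiproliferative factor, lay at 5.48 and 5.59 against 4.81 and 4.81 in HSC, and 6.06 and 5.97 against 4.66 and 4.32 in KSL. Its joint difference was -1.13 ± 0.19 (limma adjusted p = 0.215), seen on 1 probe set, since the other gave 0.02. Btg1, of the same family, differed by -0.17 and -0.39 in HSC and KSL, the mRNA decay factor gene Zfp36l1 by -0.18 and -1.01 and Ndn (necdin) by -1.31 and -0.42. Cdkn1a (p21) was the higher member, at 6.64 and 6.81 against 7.34 and 7.50 in HSC, and 7.72 and 7.24 against 7.80 and 7.84 in KSL. Cell cycle lists had few members in the shared set: 2 of 35 mitosis genes, Bub1 at 0.38 and 0.29 and Ect2 at 1.04 and 0.18, were shared higher genes, and of 41 replication genes Mcm10 at 0.44 and 0.19 was higher (other probe sets -0.09 and -0.33, and -0.037 with the mean of all) and Mcm5 at -0.31 and -0.41 and Rfc1 at -0.23 and -0.25 were lower, each share being near the background.

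Erythroid genes had 4 shared lower members of 17 (23.5% where 5.9% of all genes were lower) and 0 higher, with a median joint difference of -0.52. All 4 kept a gap of at least 0.2 log2 units. Car2, carbonic anhydrase 2, lay at 12.64 and 12.35 against 11.82 and 11.98 in HSC, and 11.66 and 11.16 against 9.50 and 9.86 in KSL. Gata1, the master regulator of red cell and platelet precursors, lay at 8.36 and 7.56 against 7.28 and 6.95 in HSC, and 7.48 and 7.08 against 5.91 and 5.78 in KSL. Klf1, the erythroid Kruppel-like factor, lay at 9.62 and 7.38 against 6.96 and 6.96 in HSC, and 8.47 and 7.10 against 5.41 and 5.66 in KSL. Nfe2 differed by -0.63 and -0.41 in HSC and KSL. For Klf1 and Gata1 the normal array with the male pattern was the higher of its pair in both cell types. Without those arrays the joint difference of Klf1 was -0.99 in place of -1.90, that of Gata1 -0.84 in place of -1.14, and the median of the list -0.15. Hba-a1, a globin gene of mature red cells, was at 4.54 to 5.11 on all arrays. None of 17 megakaryocyte and platelet genes met the rule, with Selp at 0.95 and 0.38 and Gp9 at -0.06 and -0.61 in HSC and KSL.

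Lymphoid priming genes were lower in 4 of 21 members (19% where 5.9% of all genes were lower) and higher in 0. None kept a gap of at least 0.2 log2 units. The joint difference was below 0 for 19 of 21, and 14 were below 0 in both cell types. The list's median of -0.57 came mostly from KSL (-1.08, against -0.13 in HSC). Rag2, a recombinase subunit, lay at 4.73 and 4.80 against 4.56 and 3.54 in HSC, and 6.81 and 6.12 against 5.21 and 5.07 in KSL. Rag1, its partner, lay at 3.42 and 3.49 against 3.32 and 3.32 in HSC, and 4.72 and 4.33 against 3.38 and 3.32 in KSL. Il12a, a cytokine subunit gene, lay at 9.60 and 9.59 against 9.52 and 9.38 in HSC, and 9.97 and 10.01 against 8.80 and 8.87 in KSL. In HSC these genes were at or near the lower limit (Rag1) or differed by little (Il12a, -0.14), so that the shared direction there rests on small gaps. Satb1, a chromatin organiser of lymphoid cells, differed by -0.23 and -0.22 in HSC and KSL. Of the B lineage list 0 of 15 and of the T and NK list 0 of 17 met the rule, with the surrogate light chain gene Igll1 at 2.47 and 0.31, Blk at -0.33 and -0.31, Gata3 at -0.06 and -1.11 and Cd3e at -0.06 and -1.35. Ms4a1 (CD20) was at the lower limit on all 8 arrays.

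**Figure D4:**
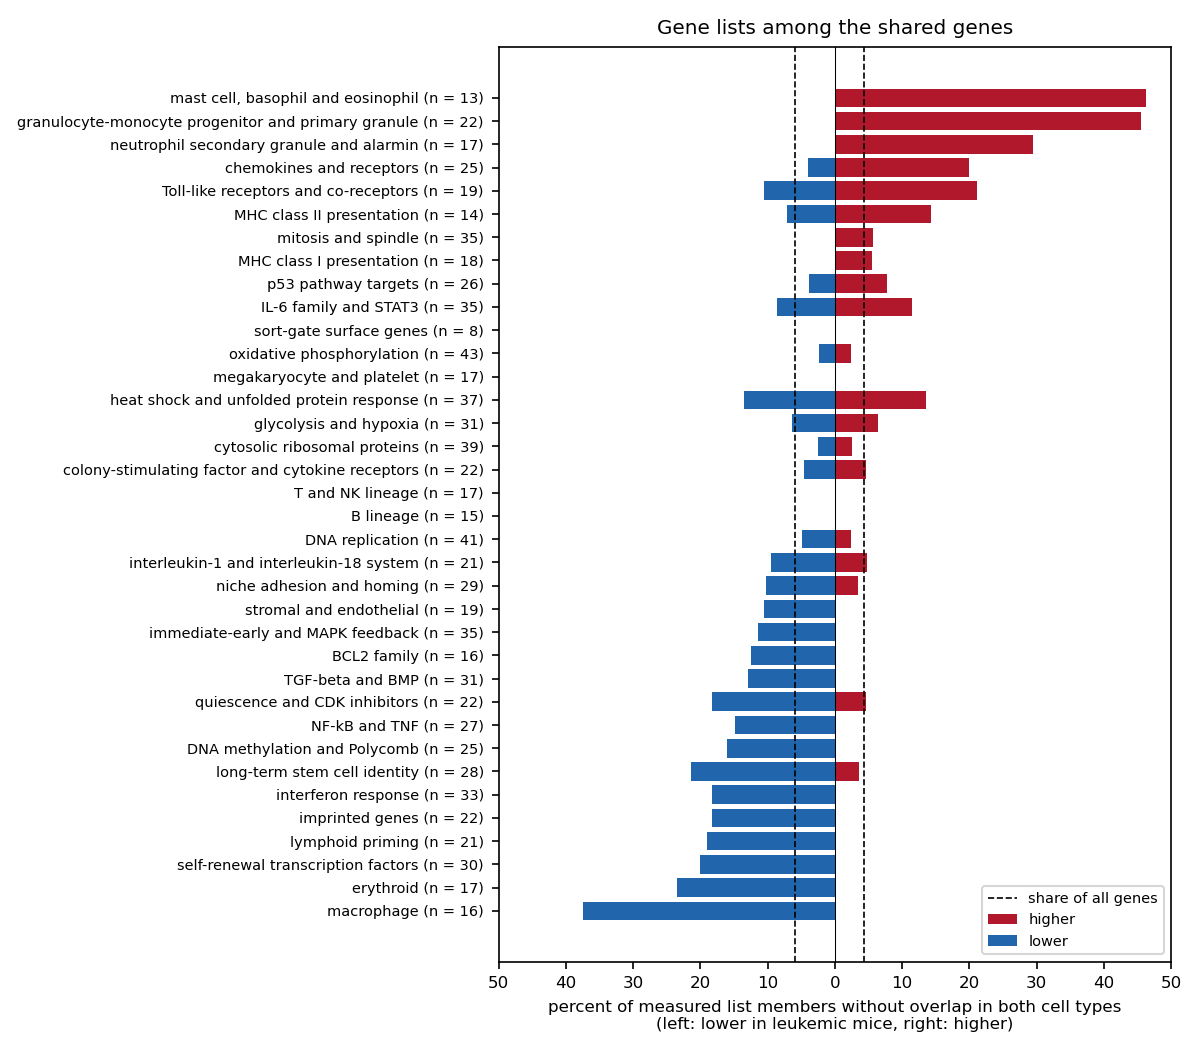
Share of each list's measured members that met the rule, as percent of members, without the list of sex-linked genes, higher genes to the right and lower genes to the left, with dashed lines at the shares of all genes (4.28% and 5.9%). Of the lists drawn, mast cell, progenitor granule and neutrophil genes reach farthest right (46.2%, 45.5% and 29.4%) and macrophage genes farthest left (37.5%).

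Immediate-early genes and MAP kinase feedback had 4 shared lower members of 35 (11.4% where 5.9% of all genes were lower) and 0 higher, with a median of -0.29. A gap of at least 0.2 log2 units left 1 lower. Dusp1, a phosphatase that switches MAP kinases off, lay at 12.13 and 12.17 against 11.76 and 11.82 in HSC, and 11.69 and 11.67 against 11.13 and 11.05 in KSL. Its joint difference of -0.47 ± 0.06 had the smallest p of the 4 (limma adjusted p = 0.149). Jun, a subunit of AP-1, differed by -0.13 and -0.79 in HSC and KSL, Ier2 by -0.38 and -0.44 and Dusp2 by -0.54 and -0.69. The list's median was 0.08 in HSC and -0.50 in KSL. The AP-1 gene Fosl2 was higher in HSC (1.47) and overlapped in KSL (-0.0).

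NF-kB and TNF pathway genes were lower without overlap in 4 of 27 members (14.8% where 5.9% of all genes were lower) and higher in 0. A gap of at least 0.2 log2 units left 1 lower. The joint difference was below 0 for 22 of 27, and 15 were below 0 in both cell types. Nfkbie, an inhibitor of NF-kB that is itself a target of it, lay at 6.70 and 7.14 against 6.0 and 6.21 in HSC, and 7.33 and 7.42 against 6.78 and 6.69 in KSL. The subunit gene Rela differed by -0.45 and -0.18 in HSC and KSL, the caspase-8 inhibitor gene Cflar by -0.56 and -0.21, and the adhesion molecule gene Icam1 by -0.65 and -0.62. Other probe sets for Cflar were divided, at -0.24, -0.34, 0.35 and 0.33. Interferon response genes showed 6 of 33 members lower (18.2% where 5.9% of all genes were lower) and 0 higher, and 3 kept that gap. The list's median was -0.23, with -0.09 in HSC and -0.31 in KSL. Ddx58 (RIG-I), a sensor of viral RNA, lay at 8.69 and 8.26 against 7.91 and 7.67 in HSC, and 7.29 and 7.62 against 6.67 and 6.58 in KSL. Its other probe sets gave joint differences of 0.19 and -0.29. Irf9, the DNA-binding subunit of the interferon-activated complex ISGF3, lay at 8.28 and 8.42 against 7.41 and 6.63 in HSC, and 7.41 and 7.54 against 6.98 and 6.89 in KSL. Oas3 differed by -0.58 and -0.85, Oasl2 by -0.08 and -1.31, Irf7 by -0.16 and -0.59 and Irgm1 by -0.90 and -0.42. These members were lower, while the interferon-inducible Cxcl10 was higher, as given above.

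TGF-beta and BMP signalling had 4 shared lower genes of 31 (12.9% where 5.9% of all genes were lower) and 0 higher, and 1 kept a gap of at least 0.2 log2 units. The list's median joint difference was -0.13, with 0.01 in HSC and -0.18 in KSL. The signal transducers Smad3 and Smad5 had joint differences of -0.40 ± 0.09 and -0.51 ± 0.08, the target gene Id2 of -0.56 ± 0.19 and the co-repressor gene Tgif1 of -0.44 ± 0.22. Other probe sets gave -0.05 and 0.24 for Id2 and -0.71 and 0.15 for Smad3. Among 29 adhesion and homing genes, the integrin gene Itga6 was higher (0.47 and 0.23) and Itgb7 (-0.71 and -0.23), Icam1 and Dpp4 (-0.73 and -0.72), a protease that cleaves CXCL12, were lower. The shares were 3.45% higher and 10.3% lower, and none of these genes kept a gap of at least 0.2 log2 units. None of the 8 sort-gate genes met the rule, including Slamf1 (CD150), which defines the HSC gate, at -0.78 and -0.79, with other probe sets at -0.65 and -0.39. The others included Kit at 0.11 and -0.28, Ptprc (CD45) at -0.0 and -0.24, Cd34 at -0.14 and -0.75, Flt3 at -0.04 and -1.46, Itga2b at 0.94 and -0.68 and Ly6e at 0.09 and -0.13. Of the 19 stromal and endothelial genes, Kdr (-1.58 and -0.40) and Pecam1 (-0.16 and -0.51) were lower. Both rest on 1 array: without the female normal HSC array (7.77 against 5.03 on the male one) the joint difference of Kdr was -0.32 in place of -0.99, and without the female normal KSL array that of Pecam1 was -0.14 in place of -0.33. Cxcl12, made by marrow stroma, was at 1.08 and 0.25, Col1a1 at 1.64 and -0.07, Cdh5 at -0.16 and 0.50 and Lepr at -0.01 and -0.04, and these did not meet the rule.

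In the list of DNA methylation and Polycomb enzymes, 4 of 25 were lower (16% where 5.9% of all genes were lower) and 0 higher. A gap of at least 0.2 log2 units left 1 lower. The list's median was -0.25, and -0.16 without replicate 1 of leukemic KSL. The Polycomb methyltransferase gene Ezh2 lay at 9.56 and 9.70 against 9.25 and 8.96 in HSC, and 9.95 and 9.90 against 9.60 and 9.39 in KSL. Its partner Eed differed by -0.71 and -0.38 in HSC and KSL, and the DNA methyltransferase genes Dnmt3a and Dnmt3b by -0.60 and -0.40 and by -0.55 and -0.31. Ezh2 and Eed are subunits of the same complex, which methylates histone H3, and both de novo DNA methyltransferases were lower beside them. Imprinted genes were lower in 4 of 22 members (18.2%) and higher in 0, with 2 left by that gap and a median of -0.09. Kcnq1ot1, a noncoding RNA of an imprinted cluster, lay at 9.76 and 9.94 against 9.22 and 8.76 in HSC, and 9.33 and 9.38 against 8.77 and 8.77 in KSL, and Dlk1 differed by -0.55 and -0.29, Phlda2 by -0.38 and -0.29 and Ndn by the values given above.

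The remaining lists had few shared members, to be read beside the shares of all genes, 4.28% higher and 5.9% lower. In MHC class II presentation, Ifi30, a lysosomal thiol reductase, was higher (1.25 and 0.77), Cd40 was higher (0.43 and 0.08) and Cd86 lower (-1.51 and -0.45) of 14 measured. Without the male normal HSC array the joint difference of Cd40 was 0.063 in place of 0.253. Without the female normal HSC array that of Cd86 was -0.575 in place of -0.981, and its other probe set gave -0.06. In MHC class I, 1 of 18 was higher, the peptide-trimming enzyme gene Erap1 (0.90 and 0.43). Of 26 p53 targets, Cdkn1a and the death receptor gene Fas (0.67 and 0.39) were higher and Tnfrsf10b (-0.59 and -0.16) lower. Of 16 BCL2 family genes, the survival genes Bcl2l1 (-0.81 and -0.44) and Mcl1 (-0.36 and -0.31) were lower. Other probe sets for Bcl2l1 gave -0.05, 0.42 and 0.11, and the mean of its probe sets gave a joint difference of -0.037 in place of -0.63. In glycolysis, 2 of 31 genes were higher and 2 lower. Ldha, lactate dehydrogenase A, lay at 11.79 and 11.69 against 12.01 and 12.01 in HSC, and 11.70 and 11.58 against 11.89 and 11.99 in KSL, a small but tight separation of 0.29 ± 0.04 (limma adjusted p = 0.192). Pkm differed by 0.15 and 0.32, Ldhb by -0.71 and -0.27 and Pfkm by -0.96 and -0.34. Of 43 oxidative phosphorylation genes, Ndufa1 was higher (0.21 and 0.15) and Cox6a1 lower (-0.31 and -0.23). Of 39 cytosolic ribosomal protein genes, Rpl27 was higher (0.08 and 0.04) and Rps27 lower (-0.55 and -0.25), and with all arrays shifted to a common median 10 were higher and 1 lower. Near-identical copies of ribosomal protein genes can share probe signal.

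Several of the largest shared differences were in genes outside every list. Among the lower ones, Epb41l3, a membrane skeleton protein, lay at 6.63 and 7.28 against 5.10 and 5.25 in HSC, and 6.75 and 7.10 against 6.10 and 5.59 in KSL. Camk1d, a calcium-dependent kinase, lay at 6.70 and 7.93 against 6.02 and 5.81 in HSC, and 7.90 and 7.26 against 5.74 and 5.86 in KSL. Tmcc2 lay at 8.30 and 8.39 against 7.20 and 7.25 in HSC, and 8.01 and 7.54 against 6.65 and 6.81 in KSL. The last had the smallest p of the 15 lower genes with the largest differences, with a joint difference of -1.08 ± 0.11 (limma adjusted p = 0.113), and its other probe set gave -1.12. For Camk1d the other probe sets gave 0.27 and 0.02, so the difference was seen on the brightest probe set only. Jakmip1, which binds Janus kinases and microtubules, differed by -2.68 and -1.53 in HSC and KSL, with leukemic HSC arrays at 9.70 and 6.17. Papolg, a poly(A) polymerase, differed by -1.52 and -1.59, while its other probe set gave 0.30. The transporter genes Slc15a2 (peptides) and Slc16a9 (monocarboxylates) differed by -1.41 and -1.14 and by -1.99 and -1.13, and the methyltransferase gene Mettl8 by -1.08 and -1.34. The potassium channel gene Kcnn4 was lower on every leukemic array too, at 12.12 and 11.84 against 11.23 and 10.83 in HSC, and 11.16 and 10.72 against 10.12 and 9.98 in KSL.

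Among the higher genes outside the lists, Tctex1d1, a dynein light chain relative, lay at 3.34 and 3.32 against 4.56 and 5.38 in HSC, and 4.94 and 5.88 against 7.83 and 7.80 in KSL. Dmkn, a secreted protein known from skin, lay at 3.33 and 4.74 against 5.48 and 5.15 in HSC, and 6.74 and 8.21 against 9.99 and 9.66 in KSL. Its difference was 1.82 on all arrays and 1.09 without the arrays with the male pattern. The folate enzyme gene Mthfs differed by 1.49 and 1.31 in HSC and KSL and the noncoding RNA gene Mdrl by 1.85 and 1.20. The guanine deaminase gene Gda lay at 7.84 and 8.31 against 8.98 and 8.99 in HSC, and 7.59 and 8.07 against 9.94 and 9.53 in KSL. The chromatin remodeller gene Chd7 differed by 1.11 and 1.20 and coagulation factor X (F10), made by liver and macrophages, by 1.03 and 0.95.

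Among the genes chosen by the rule, the difference was larger in HSC for 559 of 779 higher and 758 of 1074 lower genes, a comparison without a test. The same values chose these genes, and groups separated for 32.7% of all genes in HSC against 44.5% in KSL. The comparison therefore cannot say that the response was larger in HSC. The test of the HSC difference minus the KSL difference passed for 0 of the 1853 shared genes (0.0055% of all genes passed, limma adjusted p), with 81 higher and 106 lower genes at an unadjusted p under 0.05. The shared genes were brighter than average, with a median level of 7.54 for higher and 7.68 for lower genes against 6.47 over all genes, and 22 and 36 of them had an array at the lower limit.

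Other probe sets of the same genes offered a second reading within the same arrays. For the higher genes, 510 of 754 further probe sets (67.6%) had the same sign of joint difference, and for the lower genes 848 of 1178 (72%), where over all genes 60.4% of further probe sets matched their gene's sign. Of the 125 shared genes named by size or as list members with the smallest p, 60 had other probe sets, which all had the same sign for 43. They were divided for 9 (Bcl2l1, Cd40, Cflar, Ddx58, Dnmt3a, Id2, Kcnq1ot1, Satb1 and Smad3). None had the same sign for 8 (Bub1, Camk1d, Ccl9, Erap1, Mcm10, Papolg, Tob1 and Tpsb2). Shared genes named for other reasons are outside these counts. Among them, other probe sets were divided for Trim37 (0.57, 0.23, 0.67 and -0.29), for Socs6 (-0.01 and 0.16) and for Lair1, as given above. The other probe set for Usf2 gave -0.29. Leaving out 1 array moved the joint difference of 17 of the 125 by over 1.5 times, among them Ect2 from 0.61 to 0.19 and Ifi30 from 1.01 to 0.54 (both without the female normal HSC array), and Mcpt8 from 1.38 to 0.85 and Jakmip1 from -2.11 to -1.29 (both without replicate 2 of leukemic HSC). Neighbouring genes were also examined, using the gene order of GRCm38.p6. Of 18122 adjacent pairs of measured genes, 45 were both shared higher, 82 both shared lower, and 91 had 1 of each. The first kind included the granule protease genes Mcpt8 and Ctsg, Prtn3 and Elane, and the eosinophil genes Prg2 and Prg3. The second included Hspa1b and Hspa1a, C1qc and C1qa, the carbonic anhydrase genes Car3 and Car2, Lyl1 and Nfix, and Hmox1 and Mcm5. These pairs were picked as examples, and some are members of the same gene family. With 4.28% of all genes shared higher and 5.9% shared lower, some neighbours would match by chance. How many was not calculated, so the counts do not show that neighbours go together.

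Promoter windows of 250 bases, from RefSeq on GRCm38.p6, were found for 623 higher, 858 lower and 14452 genes in all, and median GC content was 58.8% for higher and lower genes and 57.6% for all. Each motif was searched on both strands and counted whether or not it overlapped another. The GATA core AGATAA was in 8.8% of windows of higher genes, 6.62% of those of lower genes and 7.4% of all. The AP-1 site TGANTCA was in 5.65%, 4.57% and 5.62%, the Myc E-box CACGTG in 7.62%, 7.52% and 7.38%, the interferon pair GAAANNGAA in 5.78%, 7.34% and 6.32%, and the Runx core TGTGGT in 11.3%, 10% and 11.7%. All were close to the share of all windows.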

How the data were processed

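RNA was measured on 8 Affymetrix mouse arrays, 2 in each of 4 groups set by the labels for disease and cell type. Some labels conflict: free-text descriptions speak of embryos, both KSL leukemic titles name normal and leukemic mice, and the protocols name both Nugen amplification and the standard Affymetrix method. The authors deposited log2 values for 45101 probe sets. RMA is named in the submitters' processing notes. What followed was not given in the sources used here. Values had a floor at 10 on the linear scale, which held 14.9% to 15.8% of probe sets per array. The platform annotation gave 1 gene symbol for 34945 probe sets, several for 932 and none for 9160, and 64 were controls. Of those with 1 symbol, 34741 matched the RefSeq table of GRCm38.p6. The brightest probe set by mean stood for each gene, with no filter on dim genes (1290 were at the floor on all arrays). Groups were compared with limma 3.58.1 in R 4.3.3 (cell type and disease state as terms, 5 residual degrees of freedom, two-sided, Benjamini-Hochberg over all 18193 genes, threshold 0.05). The number of arrays limits the precision.

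The members of the shared set and 37 gene lists (891 of 993 entries measured) were chosen with earlier results of these data known. A gene counts once per list. Genes named without a list were the 15 higher and 15 lower with the largest smaller difference of both cell types, leaving out unnamed genes, smell and taste receptors, small RNAs, antigen receptor segments and sex-linked genes. For each list up to 4 shared members with the smallest p were named. Other genes were named after their values were seen, and so was the heat shock motif. On simulated data for 18193 genes with 200 changed, the joint test recovered 56% of changes of 1 log2 unit and 88% of 2, with 8 false among 152 calls. Alternatives were other probe set choices, scalings, filters, blocks, weights and leaving out arrays. Tables used pandas 2.3.3 and numpy 2.4.6 in Python 3.11.15, and figures matplotlib 3.10.9.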

Additional observations from a re-analysis of the deposited data

Results flagged for a closer look

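Some lists had mean levels that separated leukemic from normal arrays in both cell types but in opposite directions, and these differences between HSC and KSL were not tested. B lineage genes had a leukemic minus normal mean level of 0.914 in HSC and -0.405 in KSL, T and NK genes of 0.17 and -0.459, and chemokines and their receptors of 0.372 and -0.231. For IL-6 family and STAT3 genes the values were 0.159 and -0.069, for mitosis genes 0.23 and -0.069, and for glycolysis and hypoxia genes -0.206 and 0.075. The chemokine and IL-6 lists thus held shared higher members such as Ccr2 and Socs3 although their mean levels went apart.

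The comparisons above left out probe sets without a gene symbol. In a joint fit of all 45101 probe sets, limma passed 1 at an adjusted p under 0.05, probe set 1442784_at, which has no symbol. Its levels were 6.0 and 6.04 in HSC and 6.27 and 6.21 in KSL of normal mice, and 4.85 and 4.74 in HSC and 5.11 and 5.12 in KSL of leukemic mice. The joint difference was -1.178 ± 0.037 (limma adjusted p = 0.00731), and all 4 leukemic arrays were below all 4 normal arrays. Of 9160 probe sets without a symbol, 703 (7.67%) met the rule for shared genes, a lower share than the 10.2% of all genes.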

How the results depend on the processing

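Limma called 0 genes in either direction with all arrays and whichever array was left out (0 to 0). Averaging a gene's probe sets gave 1 higher and 2 lower, 1 mean per group 3 and 12 (Cirbp, Pdrg1, Creb3, Il12a and Dusp1 among them), and array weights 10 and 20 with 3227 at an unadjusted p under 0.05 (Cirbp, Pdrg1, Dusp1 and Socs3 among those called). Without 1 array, 1502 to 2107 genes reached that p. The shared set held 1068 to 1444 higher and 1355 to 1868 lower genes without 1 array, and 2091 and 2555 without both arrays with the male pattern, where fewer arrays can overlap. A common median gave 1266 higher (761 lower), with the median of all genes at 0.06. Cyclic loess gave 2451 lower (882 higher), and 1491 of its 1500 added lower genes had an array at the floor. Without such genes, as added after seeing the data, it gave 860 and 923. A gap of at least 0.2 log2 units, also added later, left 186 and 324. Without the arrays with the male pattern, 18 of the 125 shared genes named by size or within lists moved by over 1.5 times, among them Klf1, Dmkn, Mn1, Dusp2 and Dpp4. None of the 125 changed sign. Mcm10 turned to -0.037 with the mean of its probe sets. With the replicate number as a block 0 genes passed (1831 at an unadjusted p under 0.05), and with a random replicate block 0 (2179). Differences between replicates 1 and 2 had correlations of -0.04 to 0.09 between groups. These cannot show whether samples of the same number share a source, and replicate 1 of both normal groups had the male pattern. Of 1853 shared genes, 58 had an array at the floor, where only bounds are known.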
